A study of Mus musculus with 7 samples.

Results

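The genes described here encode the filament proteins of the hepatocyte cytoskeleton and are 10 of the 56691 genes in the deposited count table. They were chosen by symbol: the cytoplasmic actins Actb and Actg1, the alpha-tubulins Tuba1a, Tuba1b and Tuba1c, the beta-tubulins Tubb2a, Tubb5 and Tubb6, and the keratins Krt8 and Krt18. All 10 were in the table, and all 10 passed the filter on low counts. The liver samples came from male C57BL/6J mice, bought at 8 weeks of age and housed for 2 weeks. Of these, 4 were control mice and 3 received LPS, the endotoxin of Gram-negative bacteria, intraperitoneally at 10 mg/kg and were killed 24 h later. Whether the control mice received a vehicle is not given in the sources used here. The counts were asked how the transcripts of the filament proteins differed between the groups, and whether Actb, to which the RT-qPCR of the study was normalised, kept its level after LPS.

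Actin filaments, microtubules and intermediate filaments give the hepatocyte its shape, its bile canaliculi and its tracks for secretory vesicles. Actb and Actg1 encode nearly identical actins that are made in almost every cell. Alpha- and beta-tubulin join as a dimer that polymerises into microtubules, and Krt8 pairs with Krt18 in the keratin filaments that are the main intermediate filaments of hepatocytes. Because they are abundant and present in all cells, actin transcripts are widely used as a reference for RT-qPCR.

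Control replicates 1 to 4 held 14991022, 15096573, 15721944 and 18584140 counts, and LPS replicates 1 to 3 held 20500391, 17095607 and 17821331. Values are given as CPM, the counts divided by a library size scaled by TMM. A gene needed 3 counts to be taken as detected, or between 0.138 and 0.212 CPM depending on the library. Mitochondrially encoded genes took 23.7%, 14.6%, 7.48% and 8.96% of the counts in control replicates 1 to 4, and 6.45%, 3.83% and 3.94% in LPS replicates 1 to 3. Control replicates 1 and 2 therefore stood apart from the other 5 libraries in this share. LPS replicates 2 and 3 were closer to each other than other samples of the same group: the SD of their log2 ratio over 7072 genes was 0.22, against 0.35 to 0.56 in the other pairs within a group. The hepatocyte marker Alb had between 37776 and 61686 CPM in control mice and between 24642 and 24693 CPM in LPS-treated mice, so the libraries carried the transcripts of liver.

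Of the 10 genes, 1 was higher and 1 was lower in LPS-treated mice at an edgeR adjusted p below 0.05. Over all 13683 genes tested, 13.3% were higher (1825 genes) and 13% were lower (1773 genes), together 26.3%, so a count of 2 in 10 was near the background. None of the 10 passed an absolute log2 fold change of 1 as well, which 15.1% of all genes did. At an unadjusted edgeR p below 0.05, 3 were higher and 1 was lower. The share of all genes at that p is not given, here or for the lists below. DESeq2 called 2 higher and 1 lower, beside 1947 higher and 1933 lower of 16408 genes. With total counts and no scaling factors, 1350 genes were higher and 2055 lower, the median log2 fold change of all genes moved from -0.014 to -0.13, and the counts for the 10 genes were again 1 and 1. The gene that rose was Actg1 and the gene that fell was Tubb2a.

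**Figure D1:**
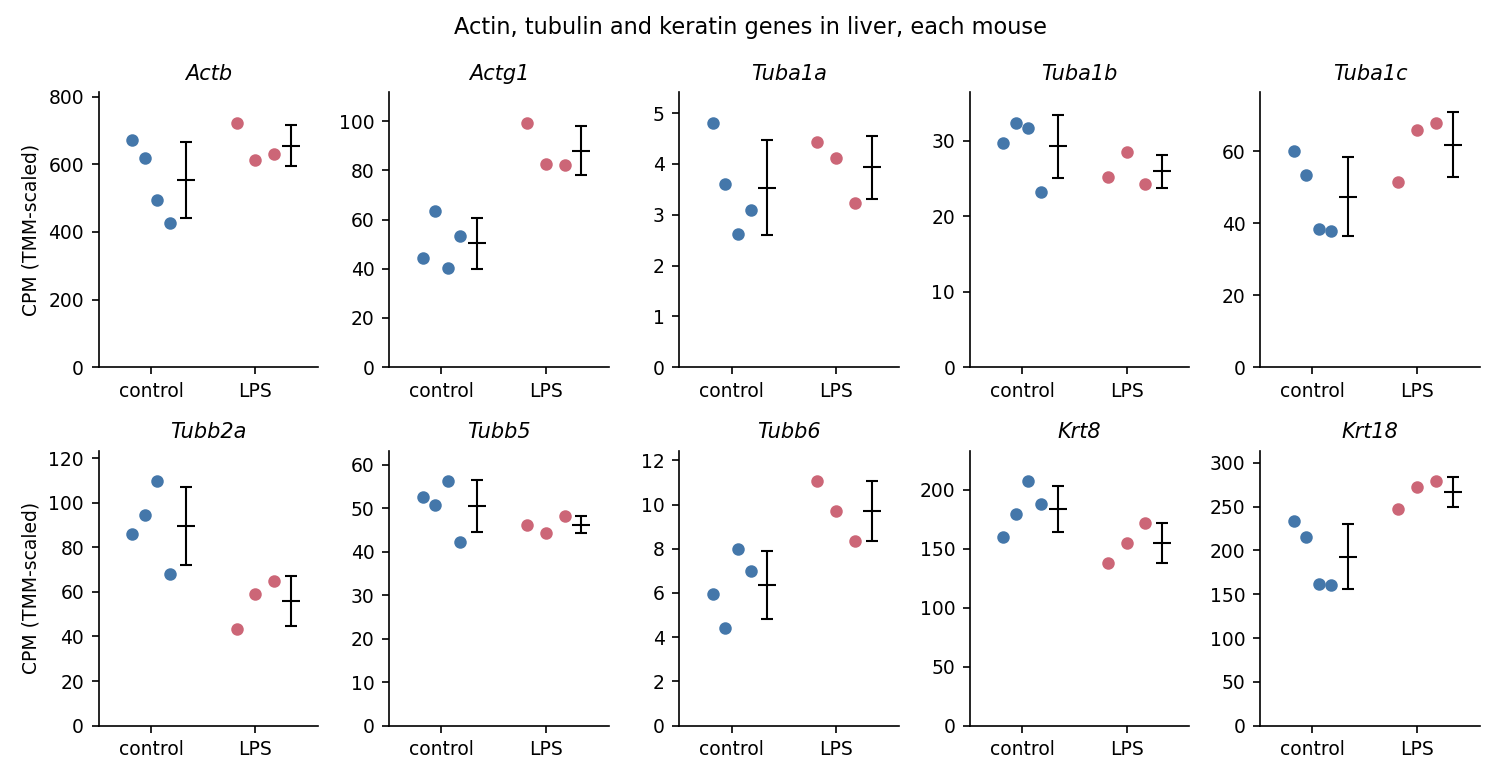
CPM of each of the 10 genes (vertical axes, linear and from 0) in each mouse, with control mice in blue and LPS-treated mice in red; the black bars give the mean and SD of 4 control and 3 LPS-treated mice. The groups do not overlap in Actg1, Tubb6 and Krt18, with LPS above control, and in Tubb2a, with LPS below control. The share of all genes tested without overlap is not given here, and Tubb6 and Krt18 were not called.

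Actb (ENSMUSG00000029580) encodes beta-actin. It had 672, 618, 494 and 426 CPM in control replicates 1 to 4, and 723, 613 and 629.7 CPM in LPS replicates 1 to 3. Control replicates 1 and 2 lay within or near the LPS range and control replicates 3 and 4 lay below it, so the groups overlapped. The mean was 553 ± 113 CPM (SD, n = 4) in control mice and 655 ± 59.4 CPM (SD, n = 3) in LPS-treated mice; the log2 fold change was 0.25 (SE 0.18, 95% interval -0.14 to 0.63, edgeR adjusted p = 0.344). The interval runs from 0.909-fold to 1.55-fold. The highest control mouse had 1.58 times the CPM of the lowest, so the mice of the control group differed among themselves by more than the group means did. The 2 control mice with the higher Actb level were those with the higher mitochondrial share, and the part of that share in the Actb level was not tested. With these 2 libraries left out, which was added once the values were known, the log2 fold change of Actb was 0.50 (edgeR adjusted p = 0.0276), so the call changed. Scaling to Gapdh, which itself rose, lowered the median log2 fold change of all genes to -0.87, and that of Actb to -0.65 (edgeR adjusted p = 0.049). Without any single mouse it lay between 0.13 and 0.35 (edgeR adjusted p = 0.161 to 0.638).

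Actg1 (ENSMUSG00000062825), the gene of gamma-actin, had 44.4, 63.5, 40.2 and 53.2 CPM in control replicates 1 to 4, and 99.4, 82.4 and 82.3 CPM in LPS replicates 1 to 3. All LPS-treated mice lay above all control mice. The mean was 50.3 ± 10.3 CPM (SD, n = 4) in control mice and 88.0 ± 9.85 CPM (SD, n = 3) after LPS, which was 1.75-fold (95% interval 1.36 to 2.26) and a log2 fold change of 0.81 (SE 0.17, edgeR adjusted p = 0.0037). The call held without any single mouse, with adjusted p between 0.0023 and 0.018. Scaled to Actb the log2 fold change was 0.52 (edgeR adjusted p = 0.168), and with the shift of all genes that scaling to Gapdh brings it was -0.09.

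Because a ratio of counts within a library does not depend on the scaling between samples, Actb was also set against Actg1. There were 15.2, 9.73, 12.3 and 8.02 Actb counts per Actg1 count in control replicates 1 to 4, and 7.28, 7.44 and 7.65 in LPS replicates 1 to 3. All LPS-treated mice were below all control mice, and they lay close together while the control mice spread widely. The mean log2 ratio was 3.46 ± 0.40 (SD, n = 4) in control mice and 2.90 ± 0.04 (SD, n = 3) in LPS-treated mice, a difference of -0.56 (exact permutation test, two-sided, p = 0.0571, adjusted p = 0.0571 over the 2 ratios tested). This missed the threshold of 0.05, and 0.0286 is the smallest p that 4 mice against 3 allow. The summed level of both actins was 717, 682, 534 and 479 CPM in control replicates 1 to 4 and 823, 696 and 712 CPM in LPS replicates 1 to 3, and the groups overlapped.

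The coding sequences of the 2 actins are 1125 bases long and identical at 88.6% of their positions in the GENCODE M21 transcripts. Their first 60 coding bases are shown because the known differences between the 2 actin proteins lie near their start. The 9 positions that differ are in capitals.
Actb: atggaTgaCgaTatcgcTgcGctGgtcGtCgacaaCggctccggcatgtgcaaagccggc
Actg1: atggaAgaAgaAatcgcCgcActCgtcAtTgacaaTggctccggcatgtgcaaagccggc
Reads of Actb are thus seldom shared with Actg1. Of all stretches of 100 bases in the Actb transcript, 1.1% were also found in a transcript of another gene, against 51.1% for Actg1, mostly in the gene annotated as Gm12715. The treatment of reads matching more than 1 gene is not given in the sources used here, so the level of Actg1 is uncertain. The 6 genes that share such stretches with Actg1 had together between 7 and 17 counts in control mice and between 25 and 35 counts after LPS, beside 627 to 1099 and 1279 to 2157 counts of Actg1 itself. Had shared reads been left out, these counts could be low in any case, so they do not settle the level of Actg1.

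Among the beta-tubulins, Tubb2a (ENSMUSG00000058672) fell. It had 86.0, 94.4, 109.7 and 67.8 CPM in control replicates 1 to 4, and 43.4, 59.0 and 64.9 CPM in LPS replicates 1 to 3. Every LPS-treated mouse was below every control mouse, although LPS replicate 3 and control replicate 4 lay close to each other. The mean was 89.5 ± 17.5 CPM (SD, n = 4) in control mice and 55.8 ± 11.1 CPM (SD, n = 3) in LPS-treated mice; the log2 fold change was -0.68 (SE 0.19, 95% interval -1.09 to -0.27, edgeR adjusted p = 0.0185). Without LPS replicate 1 the log2 fold change was -0.53 (edgeR adjusted p = 0.0791) and without LPS replicate 2 it was -0.72 (edgeR adjusted p = 0.0564), so the call was lost in both fits. Without LPS replicate 2 the fall was no smaller, and the SE was 0.24 with fewer LPS-treated mice. In 36.9% of its stretches of 100 bases Tubb2a shares sequence with other genes, mainly Tubb2b, and these had together at most 11 counts in any library. The same limit holds for these counts as for those beside Actg1.

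Tubb6, a beta-tubulin of low level in liver, had 5.94, 4.42, 8.005 and 7.02 CPM in control replicates 1 to 4, and 11.1, 9.73 and 8.34 CPM in LPS replicates 1 to 3. The LPS-treated mice were above the control mice, but LPS replicate 3 was only just above control replicate 3. The log2 fold change was 0.61 (SE 0.24, edgeR adjusted p = 0.0758), which did not pass the threshold; without control replicate 3 it was 0.74 (edgeR adjusted p = 0.0382). Tubb5, which like Tubb6 shares no stretch of 100 bases with another gene, lay between 42.2 and 56.2 CPM in control mice and between 44.3 and 48.1 CPM in LPS-treated mice, a log2 fold change of -0.13 (edgeR adjusted p = 0.558). Of the 3 beta-tubulins only Tubb2a passed the test.

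The alpha-tubulins Tuba1a, Tuba1b and Tuba1c did not pass the test, with log2 fold changes of 0.16, -0.17 and 0.38 (edgeR adjusted p = 0.755, 0.464 and 0.155). Without single mice Tuba1a ranged from 0.039 to 0.336, Tuba1b from -0.275 to -0.124 and Tuba1c from 0.283 to 0.512, and none was called. Tuba1c had between 37.9 and 60.1 CPM in control mice and between 51.6 and 68.0 CPM in LPS-treated mice; with control replicates 1 and 2 left out, its log2 fold change was 0.68 (edgeR adjusted p = 0.0067). Tuba1b lay between 23.3 and 32.4 CPM in control mice and between 24.3 and 28.5 CPM in LPS-treated mice, and Tuba1a between 2.63 and 4.81 CPM over both groups. The coding sequences of the 3 genes are identical at 97.1% to 98.3% of positions, and between 53.4% and 73% of their stretches of 100 bases occur in other genes, mostly in each other. Their sum does not depend on how shared reads were divided among these 3 genes. It does depend on whether such reads were counted, which is not given in the sources used here. The sum was 94.7, 89.5, 72.7 and 64.3 CPM in control replicates 1 to 4 and 81.2, 98.6 and 95.6 CPM in LPS replicates 1 to 3, with overlap between the groups.

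Outside the 10 genes, 14 other tubulin genes were examined, of which 6 were tested. Tubb4b, a beta-tubulin, had 141, 147, 135 and 103 CPM in control replicates 1 to 4 and 74.3, 80.4 and 76.5 CPM in LPS replicates 1 to 3, without overlap, a log2 fold change of -0.77 (SE 0.15, edgeR adjusted p = 0.00257). Tuba4a, an alpha-tubulin whose gene already encodes the protein without the terminal tyrosine, had 147, 164, 175 and 124 CPM in control replicates 1 to 4 and 70.4, 85.4 and 78.7 CPM in LPS replicates 1 to 3, a log2 fold change of -0.96 (SE 0.16, edgeR adjusted p = 6.28e-04). Both fell in every fit that left out a mouse. The low-level gene Tuba8 rose, with a log2 fold change of 1.37 (edgeR adjusted p = 0.0104, and 0.0728 without LPS replicate 3). The median log2 fold change of the 6 genes was -0.45, beside -0.014 over all genes tested.

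Per kilobase of transcript, Tubb4b stood at 82.2 ± 12.2 CPM (SD, n = 4), Tubb2a at 55.6 ± 10.8 and Tuba4a at 53.7 ± 7.85 in control mice. These were the highest levels among the tubulins tested, and these 3 genes were the tubulins called lower. The levels were divided by the whole transcript length, although 73% of the stretches of Tuba1b and 53.4% of those of Tuba1c are shared. If shared reads were left out, the levels of these 2 genes are too low, and their places in the order are uncertain. Tube1 had the lowest level, at 0.415 ± 0.202 CPM per kilobase in control mice (SD, n = 4). It had the largest fall by log2 fold change, -1.69, but was not called (edgeR adjusted p = 0.090). Without control replicate 3, edgeR called 3 of the other tubulin genes lower, against 2 with all mice. A link between level and fall was not tested. In LPS-treated mice Tubb4b, Tubb2a and Tuba4a stood at 48.2 ± 1.92, 34.6 ± 6.90 and 27.5 ± 2.65 CPM per kilobase (SD, n = 3). Tuba1c, at 31.2 ± 4.52 CPM per kilobase in LPS-treated mice, was then within the spread of Tubb2a and above the mean of Tuba4a, whereas its 23.9 ± 5.59 CPM per kilobase in control mice was below both.

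Krt18 (ENSMUSG00000023043), the type I keratin of hepatocytes, had 233, 215, 161 and 161 CPM in control replicates 1 to 4, and 247, 273 and 279 CPM in LPS replicates 1 to 3. The LPS-treated mice all lay above the control mice, and control replicates 1 and 2 were closer to the LPS-treated mice than control replicates 3 and 4. The mean was 193 ± 37.3 CPM (SD, n = 4) in control mice and 266 ± 17.1 CPM (SD, n = 3) in LPS-treated mice; the log2 fold change was 0.47 (SE 0.16, 95% interval 0.11 to 0.82, edgeR adjusted p = 0.0544). This narrowly missed the threshold. With DESeq2 the adjusted p was 0.0267, without control replicate 1 the edgeR adjusted p was 0.0193, and with control replicates 1 and 2 left out the log2 fold change was 0.71 (edgeR adjusted p = 0.00189); over all its alternatives the adjusted p lay between 0.00189 and 0.554. With the shift of all genes that scaling to Gapdh brings, the log2 fold change was -0.41.

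Krt8 (ENSMUSG00000049382), the type II keratin that pairs with Krt18, had 160.2, 179, 207 and 188 CPM in control replicates 1 to 4, and 138, 155 and 172 CPM in LPS replicates 1 to 3. LPS replicates 1 and 2 were below all control mice, while LPS replicate 3 was above control replicate 1. The log2 fold change was -0.24 (SE 0.15, 95% interval -0.56 to 0.07, edgeR adjusted p = 0.247). In control mice Krt8 was lowest in replicate 1 and Krt18 highest there, so the 2 keratins did not vary together among the control mice.

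The count of Krt8 per count of Krt18 was 0.686, 0.833, 1.29 and 1.17 in control replicates 1 to 4, and 0.56, 0.568 and 0.616 in LPS replicates 1 to 3. The LPS-treated mice lay below all control mice, and the control mice fell into a lower pair, replicates 1 and 2, and a higher pair, replicates 3 and 4. The mean log2 ratio was -0.056 ± 0.42 (SD, n = 4) in control mice and -0.78 ± 0.07 (SD, n = 3) in LPS-treated mice, a difference of -0.73, or 0.604-fold (exact permutation test, two-sided, p = 0.0571, adjusted p = 0.0571 over the 2 ratios tested). As with the actins, this missed 0.05. The lower pair of control mice had the higher mitochondrial share, whose part in the ratio was not tested. The summed level of both keratins was 394, 394, 369 and 348 CPM in control replicates 1 to 4 and 385, 427 and 451 CPM in LPS replicates 1 to 3, with overlap between the groups.

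**Figure D2:**
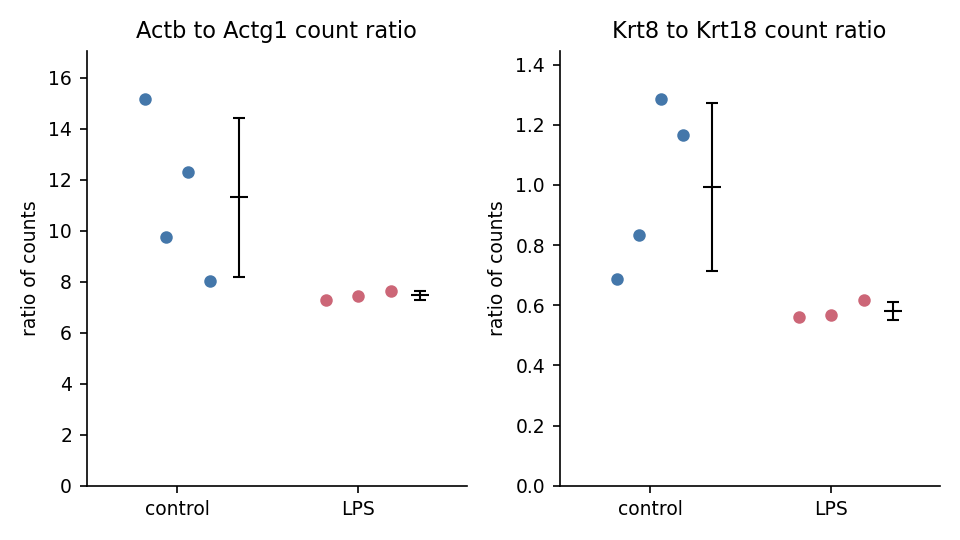
Ratio of counts within each library (vertical axes, linear and from 0) for Actb to Actg1, on the left, and Krt8 to Krt18, on the right, with 1 point for each mouse and the mean and SD of 4 control and 3 LPS-treated mice in black. For both ratios the LPS-treated mice lie below all control mice, and the LPS-treated mice spread less, from 7.28 to 7.65 and from 0.56 to 0.616.

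Among the other 11 keratin genes examined, 4 were tested and edgeR called 0 of them; at an unadjusted p below 0.05, 0 were higher and 2 were lower, and DESeq2 also called 0. Over all genes tested, 13.3% were higher and 13% lower, and a count of 0 in 4 cannot be told apart from that background. The median log2 fold change of the 4 genes was -0.92, beside -0.014 over all genes tested. Krt19, a keratin of the bile duct epithelium and the most abundant of the 4, had a mean of 3.51 ± 2.08 CPM (SD, n = 4) in control mice and 1.57 ± 0.651 CPM (SD, n = 3) in LPS-treated mice, with overlap (log2 fold change -1.14, edgeR adjusted p = 0.103). Without control replicate 1, which had 6.58 CPM, its log2 fold change was -0.66. The keratins of stratified epithelia Krt5, Krt14 and Krt17 had no counts in any library, which allows up to 0.212 CPM in the shallowest library.

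Per kilobase of transcript, the 10 genes stood in control mice in the order Actb with 288 ± 58.7 CPM (SD, n = 4), Krt18 with 134 ± 25.9, Krt8 with 93.8 ± 9.97 and Tubb2a with 55.6 ± 10.8. Then came Actg1 with 25.8 ± 5.29, Tuba1c with 23.9 ± 5.59, Tubb5 with 19.1 ± 2.24, Tuba1b with 16.8 ± 2.39, Tubb6 with 3.61 ± 0.874 and Tuba1a with 1.96 ± 0.521. Neighbours from Actg1 to Tuba1b did not differ beyond their spread. In LPS-treated mice Actb stood at 341 ± 30.9 CPM per kilobase (SD, n = 3), Krt18 at 185 ± 11.9 and Krt8 at 79.2 ± 8.62, so that Krt18 and Krt8 were further apart. Actg1 at 45.1 ± 5.05 then lay above Tubb2a at 34.6 ± 6.90, and these 2 changed places in the order. As the whole transcript length was used, the places of Actg1, Tubb2a and the Tuba1 genes depend on whether shared reads were counted. The summed level of all 10 genes was between 1009 and 1349.7 CPM in control mice and between 1334.5 and 1389.6 CPM in LPS-treated mice.

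To ask how steady Actb was for RT-qPCR, it was set beside 18 other genes that are often used as references. Of the 19 genes, 6 were higher in LPS-treated mice, where 13.3% of all genes tested were higher and 13% lower: Tfrc, the transferrin receptor, with a log2 fold change of 2.13 (edgeR adjusted p = 2.59e-06), the glycolytic genes Pgk1 with 1.15 and Gapdh with 0.83, the ribosomal protein genes Rplp0 with 0.75 and Rpl13a with 0.55, and Gusb, a lysosomal enzyme, with 0.61. None was called lower by edgeR with TMM scaling, where 3 were lower at an unadjusted p below 0.05 and DESeq2 called 1. With total counts and no scaling factors edgeR called 2 lower, B2m and Sdha (edgeR adjusted p = 0.0373 and 0.0453), and without control replicate 1 it called Sdha (edgeR adjusted p = 0.0065). The median log2 fold change of the 19 genes was 0.26, beside -0.014 over all genes. The calls of Gusb and Rpl13a were lost with total counts and no scaling factors (edgeR adjusted p = 0.14 and 0.0637), and in 4 and 2 of the 7 fits that left out a mouse (up to 0.125 and 0.0689).

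Gapdh, the other reference most used in liver, had 61.5, 47.4, 71.7 and 69.1 CPM in control replicates 1 to 4, and 121, 103 and 108 CPM in LPS replicates 1 to 3. The groups lay far apart, and the mean in LPS-treated mice was 1.77-fold that of control mice (95% interval 1.39 to 2.26, edgeR adjusted p = 0.00216). Ppia, the gene of cyclophilin A, had 376, 359, 389.6 and 369 CPM in control replicates 1 to 4, and 349.7, 357 and 355 CPM in LPS replicates 1 to 3. Its LPS-treated mice were just below its control mice, its highest mouse had 1.11 times the CPM of its lowest, and its log2 fold change was -0.08 (95% interval -0.36 to 0.20). Ywhaz and Hprt were also narrow, with highest to lowest ratios of 1.20 and 1.25, against 1.70 for Actb.

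By the SD of log2 CPM over the 7 mice Actb, at 0.27, was in place 7 of the 19 genes, counted from the smallest, and by the size of its log2 fold change it was in place 6. Ppia was first by SD with 0.055, followed by Ywhaz with 0.09 and Hprt with 0.13. Among all 7064 genes averaging 10 CPM or more, 40.7% had a smaller SD than Actb and 39.8% a smaller log2 fold change in size. Actb was thus in the middle of the genes by both measures. Within the control group its SD of log2 CPM was 0.30 and within the LPS group 0.13. These places rest on TMM scaling, under which the median gene stays near 0.

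**Figure D3:**
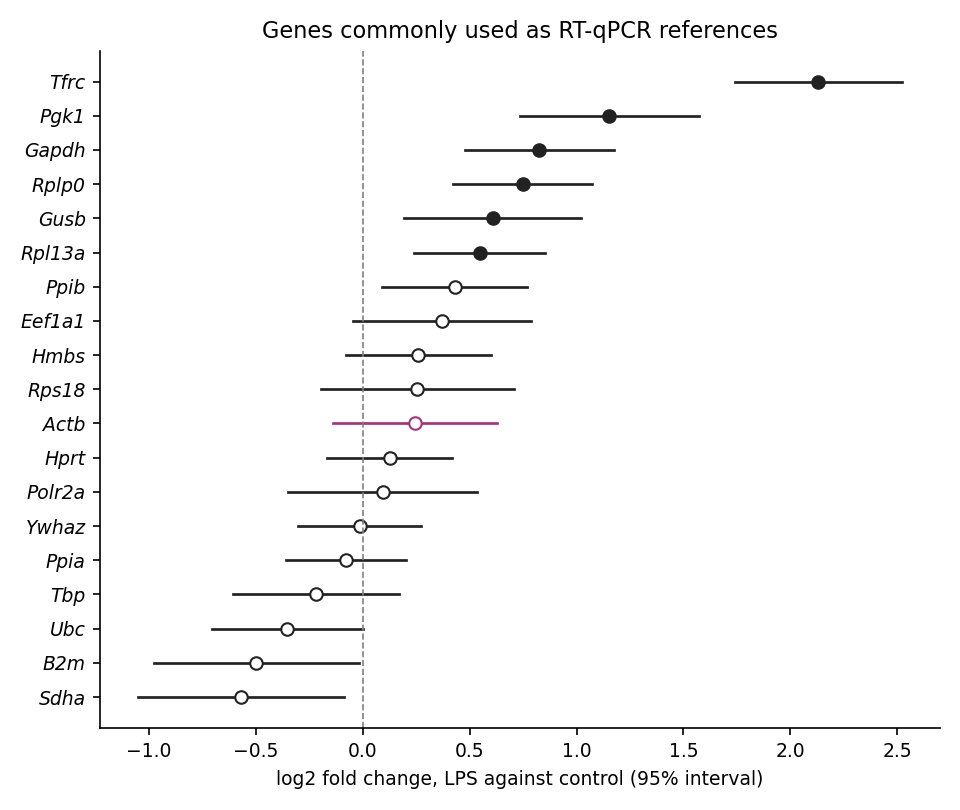
Log2 fold change of LPS-treated against control mice (horizontal axis) with its 95% interval for 19 genes often used as RT-qPCR references, sorted by value, with 4 control and 3 LPS-treated mice; filled points passed an edgeR adjusted p of 0.05, and Actb is in purple. Actb lies at 0.25 with an interval that includes 0, while Gapdh lies at 0.83 and Tfrc at 2.13.

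The transcripts that the study followed by RT-qPCR against beta-actin were read from the sequencing counts relative to Actb. There were 10 of them. The measure was the log2 of the target count plus 0.5 over the Actb count, and its difference between the groups was tested by an exact permutation test with adjustment over the 10 targets. The chemokines Ccl2 and Cxcl9, the cytokines Il1b and Tnf, and Hmox1, which encodes heme oxygenase-1, were higher relative to Actb, and Nfe2l2, the gene of Nrf2, was lower. Each of these had an exact permutation p of 0.0286, the smallest that 4 mice against 3 allow, and an adjusted p of 0.0476. The call of Tnf was lost with Gapdh as the reference and with the mean of the 18 other reference genes (log2 difference 4.33 and 4.83, exact permutation adjusted p = 0.0816 in both).

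Relative to Actb the log2 difference was 5.19 for Ccl2, 4.78 for Cxcl9, 3.12 for Hmox1 and 2.95 for Il1b. With TMM scaling the log2 fold changes of these genes were 5.47, 5.02, 3.45 and 3.21, and relative to Gapdh the differences were 4.61, 4.20, 2.55 and 2.38. The values were lower relative to Actb than with TMM scaling and lower again relative to Gapdh, and no direction turned; the TMM values come from the edgeR fit and the others from log2 ratios of counts. Relative to the mean of the 18 other reference genes the differences were 5.11, 4.70, 3.05 and 2.88. That mean includes the 6 reference genes called higher, with none called lower by edgeR with TMM scaling. Values near those relative to Actb therefore do not show that Actb was steady.

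Nfe2l2 had 77.3, 69.9, 61.5 and 73.6 CPM in control replicates 1 to 4, and 50.2, 54.4 and 54.9 CPM in LPS replicates 1 to 3, without overlap. Its log2 fold change was -0.41 with TMM scaling (edgeR adjusted p = 0.042), and its log2 difference was -0.67 relative to Actb and -1.25 relative to Gapdh. The edgeR call was lost in 6 of the 7 fits that left out a mouse, all but the fit without control replicate 3, with adjusted p up to 0.127. Casp1, the gene of caspase-1, had a log2 fold change of 0.92 with TMM scaling (edgeR adjusted p = 0.111, and a log2 fold change of 0.55 without LPS replicate 1), and log2 differences of 0.64 relative to Actb and 0.06 relative to Gapdh. Il18 had a log2 fold change of -0.73 (edgeR adjusted p = 0.0588), which was -1.16 without LPS replicate 1 (edgeR adjusted p = 0.00314), and DESeq2 called it (adjusted p = 0.0436). It had log2 differences of -1.07 relative to Actb (exact permutation adjusted p = 0.0816) and -1.65 relative to Gapdh (exact permutation adjusted p = 0.0476), so its side of the threshold changed with the reference, with 1 library and with the tool.

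Low counts limited 3 of the targets. Tnf had 0, 3, 0 and 0 counts in control replicates 1 to 4 and 83, 21 and 16 counts in LPS replicates 1 to 3, a ratio of 50.3 with a counting interval of 16.8 to 247. With TMM scaling its log2 fold change was 5.31, and 4.48 without LPS replicate 1. Without control replicate 2 the control mice had no counts of Tnf, and the fit gave 8.18. Il6 had 0, 7, 0 and 0 counts in control mice and 11, 9 and 10 in LPS-treated mice; it did not pass the filter on low counts, and relative to Actb it missed the threshold (exact permutation adjusted p = 0.0952). Nlrp3, the inflammasome sensor, had between 7 and 20 counts in control mice and between 14 and 81 counts after LPS. With TMM scaling it was called higher (log2 fold change 1.81, edgeR adjusted p = 0.032), but in only 2 of the 7 fits that left out a mouse (up to 0.209, without LPS replicate 1), and relative to Actb its log2 difference of 1.34 missed the threshold (exact permutation adjusted p = 0.0952).

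**Figure D4:**
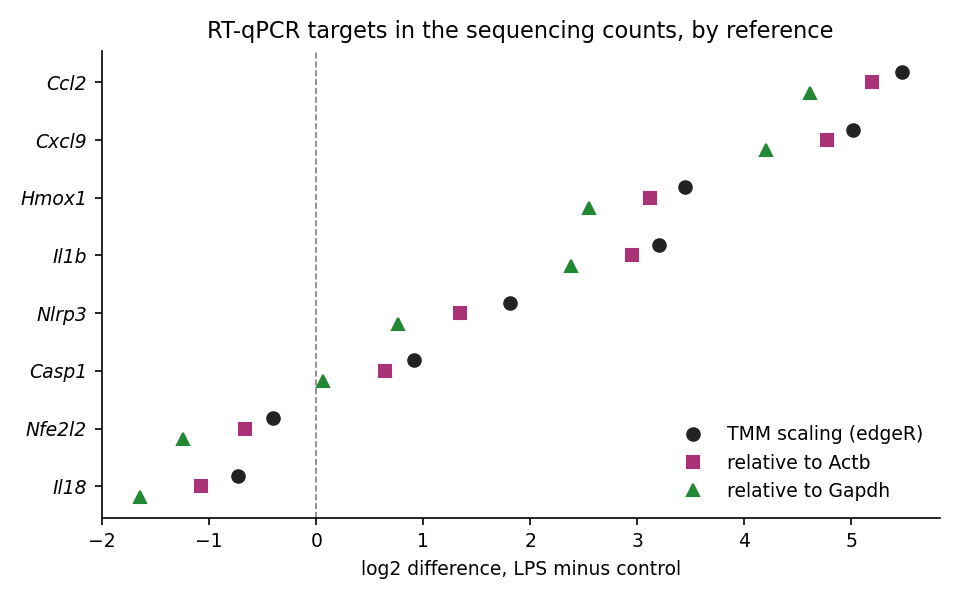
Log2 difference of LPS-treated minus control mice (horizontal axis) for 8 of the transcripts measured by RT-qPCR in the study, read from the sequencing counts of 4 control and 3 LPS-treated mice with TMM scaling (circles), relative to Actb (squares) and relative to Gapdh (triangles); Tnf and Il6 are left out for low counts. Values relative to Actb lie left of the TMM values and those relative to Gapdh further left, so that Casp1 goes from 0.92 to 0.64 and 0.06.

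The proteins that act on actin filaments were examined by list. Of 44 tested actin-binding proteins 19 rose and 4 fell, with a median log2 fold change of 0.54; over all genes tested, 13.3% rose and 13% fell. Without single mice between 13 and 22 of these genes rose and between 2 and 4 fell. Capg, a capping protein of macrophages, and Hcls1, a cortactin relative of blood cells, rose most, with log2 fold changes of 2.78 and 2.61 (edgeR adjusted p = 1.4e-05 and 2e-05). Tpm2, a tropomyosin of muscle-like cells, had a mean of 8.01 ± 0.43 CPM (SD, n = 4) in control mice and of 1.40 ± 0.388 CPM (SD, n = 3) after LPS; its log2 fold change was -2.50 (edgeR adjusted p = 3.29e-05), and Gsn, which severs filaments, fell with -1.38 (edgeR adjusted p = 0.00486). Dstn, an actin-depolymerising factor and the most abundant of the list, had a log2 fold change of 0.40 (edgeR adjusted p = 0.104).

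Of the 9 genes of the Arp2/3 complex, which starts filament branches, 3 rose, with a median of 0.19, beside 13.3% of genes higher and a median of -0.014 over all genes tested. Arpc1b and Arpc5 had log2 fold changes of 0.79 and 0.67 (edgeR adjusted p = 0.00395 and 0.00175), and the abundant subunit Actr2 had 0.04. Of 7 genes of myosin II, 3 rose and 1 fell, with a median of 0.19, where 26.3% of all genes were called. Myl12a and Myh9 had log2 fold changes of 0.52 and 0.46 (edgeR adjusted p = 0.0294 and 0.0465), which were called in only 4 and 1 of the 7 fits that left out a mouse and not with total counts (edgeR adjusted p = 0.14 and 0.193). The number of these genes called higher fell to between 0 and 2 without single mice. Myl9, the light chain of smooth muscle, had -2.63 (edgeR adjusted p = 0.00233). Myl6, the most abundant, had 0.02.

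Of 18 tested genes of the actin-sensing factors SRF and MRTF and their targets, 2 rose and 2 fell, near the 26.3% called over all genes, with a median of -0.059. Filip1l and Tagln2 had log2 fold changes of 1.15 and 1.10 (edgeR adjusted p = 0.0205 and 0.00211), the call of Filip1l being lost in 3 of the 7 fits that left out a mouse (up to 0.12, without LPS replicate 1). Ccn1, a secreted matrix protein, had -3.31 (edgeR adjusted p = 4.15e-05), and Cnn3, the most abundant, had 0.04. The smooth muscle actin Acta2, the only one of 4 other actin genes to be tested, had 1.27, 1.01, 1.16 and 0.581 CPM in control replicates 1 to 4, and 1.38, 0.258 and 0.0623 CPM in LPS replicates 1 to 3 (log2 fold change -0.75, edgeR adjusted p = 0.53). LPS replicate 1 was as high as the control mice and the others were lower, and the log2 fold change was -2.59 without LPS replicate 1 (edgeR adjusted p = 0.0604) and -0.25 without LPS replicate 3. Acta2 had 30, 4 and 1 counts in LPS replicates 1 to 3, so LPS replicate 3 was under the 3 counts needed for detection.

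Actg1 was set beside this list because SRF binds the CArG box, a sequence known from actin promoters. Of the 10 genes, 8 were in the RefSeq promoter table, and Actb and Tubb6 were not matched. In the 250 bases before the start of the gene, searched on both strands, a CArG box was found in Actg1 and in none of the other 7, and in 1.62% of the 27025 genes in the table. It begins 90 bases before the start and is shown in capitals, with its surroundings, on the minus strand at chr11:120348536-120348625 of GRCm38.p6.
Actg1 upstream: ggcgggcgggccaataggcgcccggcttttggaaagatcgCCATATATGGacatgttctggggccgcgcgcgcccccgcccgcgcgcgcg
A match to the NF-kappa B motif was found in Krt18 only among the 8, and in 8.23% of all genes. The letters TATAAA were found in Tubb2a only, and in 14.3% of all genes. A match is a description of the sequence only.

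Of 13 microtubule regulators 1 rose and 3 fell, with a median of -0.12; over all genes tested, 13.3% rose and 13% fell. The 2 lowest both act on the ends or the inside of tubulin: Ttl, which adds tyrosine back to alpha-tubulin, had a log2 fold change of -1.27 (edgeR adjusted p = 0.0104), and Atat1, which acetylates it, had -1.06 (edgeR adjusted p = 0.00873). Clip1, a protein of growing microtubule ends, had 0.50 (edgeR adjusted p = 0.0186, up to 0.0768 without single mice and called in 5 of 7 such fits, and 0.135 with total counts), and the dynein gene Dync1h1 had -0.26 (edgeR adjusted p = 0.164). Of 19 genes that fold actin and tubulin, 1 rose and 2 fell, with a median of 0.062. Tbcb and Tbce, cofactors that handle alpha-tubulin, went in opposite directions, with log2 fold changes of 0.75 and -0.90 (edgeR adjusted p = 0.0127 and 7.3e-04), and the call of Tbcb was lost without LPS replicate 3 (edgeR adjusted p = 0.0531). The prefoldin gene Pfdn6 had -0.63 (edgeR adjusted p = 0.0437), a call lost in 4 of the 7 fits that left out a mouse (up to 0.156), and the chaperonin gene Cct8 had -0.14.

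Beside the keratins, 9 genes of filament linkers and desmosomes were tested, of which 3 rose and 1 fell, with a median of 0.16; over all genes tested, 13.3% rose and 13% fell. The number that fell was 2 with DESeq2, with total counts and in 4 of the 7 fits that left out a mouse. The linkers Eppk1 and Ppl had log2 fold changes of 1.25 and 1.12 (edgeR adjusted p = 4.28e-04 and 0.0082). Dsg2, the desmoglein of hepatocytes, had 105, 99.8, 141 and 137 CPM in control replicates 1 to 4 and 64.9, 55.8 and 63.2 CPM in LPS replicates 1 to 3, a log2 fold change of -0.98 (edgeR adjusted p = 7.48e-04). Of 6 other intermediate filament genes 2 rose and 1 fell, with a median of -0.051, against the same background. Vim, the filament of mesenchymal and white blood cells, had a log2 fold change of 0.92 (edgeR adjusted p = 0.0112, and 0.0567 without LPS replicate 1), Lmna, of the nuclear lamina, had 0.57 (edgeR adjusted p = 0.0209), and Nes had -2.53 (edgeR adjusted p = 0.023). The calls of Lmna and Nes were each lost in 3 of the 7 fits that left out a mouse, and that of Lmna with total counts (edgeR adjusted p = 0.0761). The log2 fold change of Nes ranged from -3.995 without LPS replicate 1 to -2.07 without LPS replicate 3. Nes had 17, 3 and 1 counts in LPS replicates 1 to 3, so LPS replicate 3 was under the 3 counts needed for detection.

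Several of the genes that rose most are genes of white blood cells, and markers of those cells moved with them. The 8 of 10 neutrophil markers that were tested were called higher, but most passed the filter on low counts through the LPS-treated mice alone, and with at least 10 counts required in every sample 2 were called. The summed level of the list was 5.17, 4.10, 1.83 and 3.44 CPM in control replicates 1 to 4 and 221, 162 and 160.2 CPM in LPS replicates 1 to 3. S100a9 was the most abundant, Ngp had no counts in control mice, and Ly6g had no counts in control mice and 7, 0 and 1 in LPS-treated mice. Of 11 macrophage markers 5 rose and 1 fell (4 fell without LPS replicate 1), where 13.3% and 13% of all genes did, and the sum was 139, 202, 187 and 123 CPM in control mice and 700.4, 191 and 192 CPM in LPS-treated mice. LPS replicate 1 stood apart through Marco, the most abundant, with 409.7, 66.5 and 65.6 CPM in LPS replicates 1 to 3. LPS replicate 1 was also highest of its group in Actb, Actg1, Vim and Hcls1. The part of these cells in the actin results was not tested, and more cells of a type and more RNA per cell cannot be told apart in whole liver.

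For the marker counts that follow, 13.3% of all genes tested rose and 13% fell. Of 12 markers of the contractile stellate cells, 1 rose and 3 fell, with a median log2 fold change of -0.48, beside -0.014 over all genes tested. Their sum was 507, 355, 225 and 363 CPM in control mice and 352, 282 and 272 CPM in LPS-treated mice, Dcn being the most abundant. Of 9 tested cholangiocyte markers, which include Krt7 and Krt19, 1 rose and none was called lower by edgeR or DESeq2, although 2 were lower at an unadjusted p below 0.05. Without control replicate 1 edgeR called 2 higher, Spp1 among them (log2 fold change 0.55, edgeR adjusted p = 0.0372), and without control replicate 3 it called 1 lower. Their sum was 286, 129, 89.7 and 137 CPM in control mice, where replicate 1 stood apart through Spp1 with 234 CPM, and 153, 182 and 176 CPM in LPS-treated mice. Of 12 hepatocyte markers 4 rose and 5 fell (3 fell without LPS replicate 2 or without LPS replicate 3, when the call of Alb was lost), with a sum between 75217 and 95514 CPM in control mice and between 51268 and 56870 CPM in LPS-treated mice. The part of cell content in the tubulin and keratin results was not tested.

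The genes whose pattern over the 7 mice was most like that of Actb were sought among the 7064 genes averaging 10 CPM or more, by the root mean square difference of log2 CPM centred on the control mean. They were Mms19, Eif3k, Rnf25, Nip7 and Rpl14, at differences of 0.058, 0.063, 0.086, 0.088 and 0.089. Eif3k, a translation initiation factor, had 48.4, 45.4, 35.01 and 33.6 CPM in control mice and 51.4, 47.6 and 48.9 CPM in LPS-treated mice, high in control replicates 1 and 2 as Actb was. For Krt8 the nearest were Tmem135, Pi4k2b, Akr1a1, Abhd17c and Mrpl10, at differences of 0.043, 0.047, 0.055, 0.058 and 0.061. None of these 10 genes is an actin, tubulin or keratin gene, and Krt18 was not among the nearest of Krt8.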

How the data were processed

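As deposited, the values are raw gene counts; the processing notes of the authors name cutadapt 1.9.1, HISAT2 2.2.1 and HTSeq 0.6.1 as the tools behind them. Here counts were filtered with filterByExpr, scaled by TMM and tested with the quasi-likelihood F-test of edgeR 4.0.16, with Benjamini-Hochberg adjustment over 13683 genes; DESeq2 1.42.0 was run beside it. A call means an adjusted p below 0.05. Alternatives were RLE factors, total counts, removal of mitochondrial or very abundant genes, other filters, a replicate term and leaving out each mouse. Leaving out control replicates 1 and 2 and scaling to Actb or Gapdh were added once the data had been seen. The 10 genes and the lists (other filament genes, linkers, Arp2/3, actin-binding proteins, myosin II, SRF targets, folding factors, microtubule regulators, reference genes, RT-qPCR targets and cell type markers) were chosen with earlier results of these data known. The named genes were the 10 members, the reference genes, the RT-qPCR targets, and in each other list the most abundant gene and at most 2 called genes with the highest and 2 with the lowest log2 fold change, with the 5 genes nearest in pattern to Actb and to Krt8. Krt5, Krt14, Krt17 and Tube1 were named after their values were seen. Ratios of counts were tested by exact permutation over 35 splits. Levels per kilobase used GENCODE M21 transcript lengths, and promoters were those of RefSeq on GRCm38.p6, whereas the processing notes name the build GRCm39, so lengths and shared stretches may differ from the annotation behind the counts.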

Additional observations from a re-analysis of the deposited data

Results flagged for a closer look

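In 37 genes the 4 control mice were searched for a value far from the others, and 2 genes had one. Chance gives such a value in about 5% of groups. Tnf had 0.189 CPM in control replicate 2, which was 3 counts, and 0 in the other control mice, so the gap filled the whole range (ratio 1). Il18 had 20.9 CPM in control replicate 2, and its next highest control mouse had 15.6 CPM (ratio of gap to range 0.831). The causes were not tested.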

How the results depend on the processing

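Of the 10 genes, 1 was called higher and 1 lower with edgeR. The number higher was 2 with DESeq2, 2 without the low-count filter, 4 with control replicates 1 and 2 left out, 0 scaled to Actb, 0 scaled to Gapdh, and 1 to 2 without single mice. The number lower was 5 scaled to Gapdh, 0 at an adjusted p below 0.01, and 0 to 1 without single mice. With a log2 fold change above 1 also required, the numbers were 0 higher and 0 lower. Without that requirement they were 3 and 1 with edgeR at an unadjusted p below 0.05, and 2 and 1 with DESeq2. The log2 fold change of Actb was 0.50 with control replicates 1 and 2 left out and -0.65 scaled to Gapdh. Scaling to Gapdh also reversed Actg1 (-0.092), Tuba1a (-0.72), Tuba1c (-0.49), Tubb6 (-0.20) and Krt18 (-0.41), and scaling to Actb reversed Tuba1a (-0.093). These scalings shift all genes: to Gapdh the median was -0.87, with 543 higher and 7908 lower, and to Actb it was -0.30, with 904 higher and 2237 lower. Total counts reversed Actr2 (-0.068), Myl6 (-0.086), Cnn3 (-0.10), Polr2a (-0.0097) and Spp1 (-0.040). Myl6 was -0.0047 with at least 10 counts in every sample, and -0.063 with a replicate block. With control replicates 1 and 2 left out Cnn3 was -0.16, Polr2a -0.10, Dcn 0.20 and Pcna 0.0039. Without single mice Actr2 ranged from -0.035 to 0.10, Myl6 from -0.090 to 0.14, Cnn3 from -0.040 to 0.14, Ywhaz from -0.070 to 0.028, Polr2a from -0.054 to 0.25, Spp1 from -0.17 to 0.55, Dcn from -0.34 to 0.043 and Pcna from -0.12 to 0.010. Of 173 tested genes in the pathway lists, 37 to 54 were called higher and 10 to 17 lower without single mice. With LPS replicates 2 and 3 summed, 10 were called lower. Of 75 tested marker genes, 20 to 23 were called higher and 9 to 16 lower without single mice. Relative to Gapdh 2 targets were lower, and relative to the other reference genes 2. The causes were not tested. The replicate numbers carry no pairing.

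Groups of 4 and 3 mice limit every test. The edgeR intervals include variation between mice, whereas the detection floors and the interval of the Tnf ratio cover counting error only. The libraries do not show why control replicates 1 and 2 had a high mitochondrial share, or why LPS replicates 2 and 3 were so alike. Transcripts that share reads with near-identical copies, Actg1 and the Tuba1 genes above all, are uncertain. Whole liver cannot separate cell number from RNA per cell, and transcripts say nothing of protein or of filaments. RT-qPCR values were not among the data, so the reference was compared through sequencing counts alone.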
